A study of Mus musculus with 9 samples.

Results

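Collagen chain genes were read in the abdominal aorta of B cell-deficient mice after periaortic CaCl2. They were taken as every gene on the array whose name in the scanner files is Col, a number, the letter a and a number, which gave 43 genes of 23629 named genes and 68 of 55681 probes. By the structure of the protein they fell into 11 fibrillar chains, 6 basement membrane chains, 9 FACIT chains (fibril-associated collagens with interrupted triple helices) and 17 others. A filter on dim probes left 38 of the 43 for testing, among 16375 genes in all. Col9a1, Col9a3, Col13a1, Col17a1 and Col28a1 did not pass it. A gene with several probes was represented by the brightest.

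Total RNA from aorta was hybridised to 1-colour Agilent arrays, 1 array per sample, 3 per group and 9 in all. All mice carried the uMT genotype on C57BL/6, in which B cells do not develop, so none of the groups has B cells of its own. The first group had 0.5 M CaCl2 applied around the aorta and was given mouse polyclonal IgG into the peritoneum (labelled uMT_Ca+IgG), the second had CaCl2 alone (uMT_Ca), and the sham group had saline in its place (uMT_sham). Aortas were taken 7 days after CaCl2. The sources used here do not give the day for sham mice, the age of the mice or the IgG dose. Nothing in the labels says whether replicates were separate animals, so the spread behind every p-value may be technical. Ighm, disrupted in uMT mice, had no probe of that name, and the genotype was not checked.

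The share of probes well above background ran from 54.9% to 59.9% over the arrays. Replicate 3 of the group with IgG stood apart from the other 8 arrays, at -74.1 on the second principal component. The 12 smooth muscle markers were well above background on all 9 arrays, as the labelled tissue has them. Levels are log2 signals minus the 75th percentile of their own array, and they are compared between groups for 1 probe at a time, never between probes. In bulk tissue, fewer cells of a type and less RNA per cell cannot be told apart.

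Collagens are trimers of alpha chains wound into a triple helix. In the helix 1 residue of every 3 is glycine, the only one small enough for its centre, and lysyl and prolyl hydroxylases modify the chains before they leave the cell. Fibrillar chains form the cross-striated fibres that give the adventitia and media of an artery their tensile strength. Collagen IV chains form the sheet-like network of the basement membrane around smooth muscle cells and under the endothelium. FACIT chains sit on fibril surfaces, and collagens VI, VIII and X form filaments and hexagonal nets.

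The glycine repeat can be read directly from 3 of the array's own probes, which show what the hybridisation detected. Each is printed 5′ to 3′ in the sense of the gene, with the glycine codons of the repeat in capitals. The Col15a1 probe lies at chr4:47283786-47283845 and the Col14a1 probe at chr15:55347733-55347792, both on the plus strand of mm9, and the Col4a4 probe at chr1:82515563-82515622 on its minus strand.
Col15a1: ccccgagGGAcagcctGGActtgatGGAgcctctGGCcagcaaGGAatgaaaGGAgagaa
Col14a1: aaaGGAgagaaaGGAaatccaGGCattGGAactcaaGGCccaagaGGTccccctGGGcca
Col4a4: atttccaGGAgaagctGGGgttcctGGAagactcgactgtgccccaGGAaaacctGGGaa
In the Col15a1 probe, 6 glycine codons follow each other in steps of 3 codons. The Col14a1 probe has 7 and the Col4a4 probe 5, each with 1 step of another length, a break in the repeat of the kind known from FACIT and collagen IV chains. The Col15a1 probe gave the level used for its gene. The other 2 were dimmer probes of theirs. The Col14a1 probe differed from sham by 1.45 with CaCl2 plus IgG and by 1.75 with CaCl2, and the Col4a4 probe by -2.35 and -2.09 (log2, no test).

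CaCl2 was first set against sham to ask what the injury changed in the collagen genes. Of the 38 tested genes 20 rose, 9 fell and 9 did not pass the test (limma, adjusted p under 0.05), where 36.7% of all genes tested passed, 17.6% higher and 19.2% lower. The median log2 difference was 0.99 over the collagen genes and -0.08 over all genes tested. Fibrillar genes went up, with 8 of 11 higher and 0 lower, and all 6 collagen IV genes went down. Of 7 FACIT genes 4 rose and 1 fell, and of 14 others 8 rose and 2 fell. With CaCl2 plus IgG against sham, 19 rose, 6 fell and 13 did not pass, where 29.2% of all genes passed, 14.9% higher and 14.4% lower. Both comparisons use the same 3 sham arrays, so they are not independent of each other. The arrays of the 2 groups did not overlap for 56.7% of all genes tested with CaCl2 against sham. With CaCl2 plus IgG against sham the share was 44.5%. Statements below that groups did not overlap for a gene are to be read beside these shares.

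**Figure D1:**
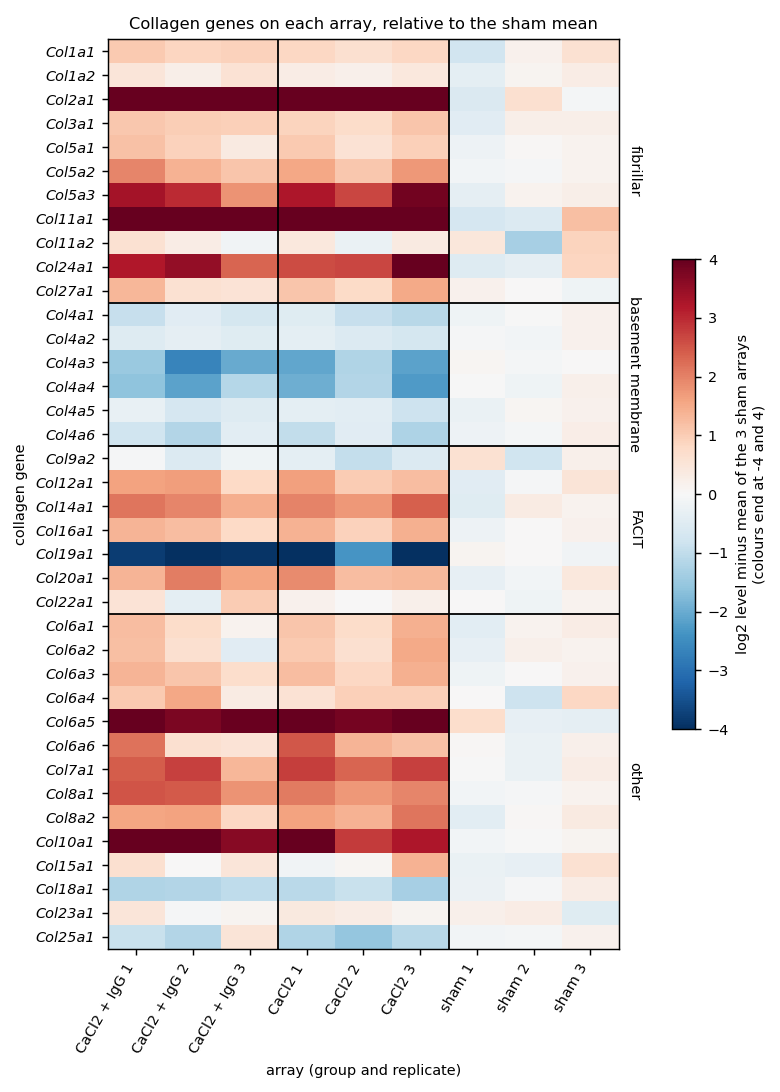
Log2 level of the 38 tested collagen genes on each of the 9 arrays, minus the mean of the 3 sham arrays, with genes in rows by class and arrays in columns by group. Red is higher and blue lower than the sham mean. The 6 collagen IV rows, Col18a1 and Col19a1 are blue on all 6 arrays of the CaCl2-treated groups, and the rows of Col2a1, Col11a1 and Col6a5 are deep red on all 6.

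The direction of a call against sham depends in part on how arrays are scaled, while the gap between classes does not, since median scaling shifts all genes of an array alike. Scaling each array to its median instead moved the median of all genes to 0.39 in CaCl2 against sham. The share of called genes that were higher was then 77.3%, against 47.8% with the 75th percentile, and in CaCl2 plus IgG against sham 71.8% against 50.9%. Under that scaling the basement membrane median was -0.39 and the fibrillar median 1.61, below and above the median of all genes.

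Fibrillar chains of collagens I, III and V make up the main fibres of the vessel wall. Col1a1 and Col1a2 encode the 2 chains of collagen I. Col1a1 read 7.60, 7.43 and 7.48 with CaCl2 plus IgG, 7.38, 7.19 and 7.40 with CaCl2, and 5.80, 6.72 and 7.15 in sham aortas. Neither treated group overlapped sham, but the sham arrays spread over more than the difference between groups. The difference from sham was 0.95 ± 0.30 with CaCl2 plus IgG (SE, adjusted p = 0.0449) and 0.76 ± 0.30 with CaCl2 (adjusted p = 0.0753). Without sham replicate 1, the lowest array, the first was 0.57 and did not pass. It also lost its call when any 1 of 7 other arrays was left out, at values up to 1.02, and at an unchanged 0.95 with no filter, with only the 2 groups compared and with the replicate block. The difference with CaCl2 passed with median scaling at 1.24, quantile normalization at 0.92, normexp at 0.86, the authors' table at 0.91 and without sham replicate 3 at 1.06. It was 0.39 without sham replicate 1 and 0.42 with slide row as a block, neither of which passed.

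Col1a2 read 9.45, 9.17 and 9.51 with CaCl2 plus IgG, 9.25, 9.14 and 9.38 with CaCl2, and 8.56, 9.06 and 9.23 in sham aortas. The groups overlapped, and the differences of 0.43 ± 0.19 and 0.31 ± 0.19 did not pass (SE, adjusted p = 0.128 and 0.236). With quantile normalization, and with the authors' table, they were 0.65 and 0.75 and both passed. Col3a1 encodes the single chain of collagen III, mutated in human vascular Ehlers-Danlos syndrome. It read 8.44, 8.35 and 8.30 with CaCl2 plus IgG, 8.25, 8.10 and 8.45 with CaCl2, and 6.91, 7.58 and 7.58 in sham aortas. All 6 treated arrays lay above all 3 sham arrays. Col3a1 rose by 1.01 ± 0.20 with CaCl2 plus IgG (adjusted p = 0.00756) and by 0.91 ± 0.20 with CaCl2 (SE, adjusted p = 0.0101), about 2.01-fold and 1.88-fold.

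Collagen V chains co-assemble with collagen I and set fibril diameter. Col5a1 read 4.48, 4.21 and 3.66 with CaCl2 plus IgG, 4.33, 3.88 and 4.26 with CaCl2, and 3.10, 3.34 and 3.44 in sham aortas. Col5a2 read 2.69, 2.14 and 1.83 with CaCl2 plus IgG, 2.29, 1.80 and 2.46 with CaCl2, and 0.62, 0.70 and 0.88 in sham aortas. Col5a3 read 3.06, 2.71 and 1.54 with CaCl2 plus IgG, 2.95, 2.39 and 3.60 with CaCl2, and -0.64, -0.13 and -0.04 in sham aortas. All 3 chains rose in both comparisons with no overlap. Of all genes tested, 56.7% did not overlap with CaCl2 against sham and 44.5% with CaCl2 plus IgG against sham. Among the 3 chains Col5a3 rose by the most. Its log2 difference was 2.71 ± 0.43 with CaCl2 plus IgG (adjusted p = 0.00295) and 3.25 ± 0.43 with CaCl2 (SE, adjusted p = 0.00132). Col5a2 rose by 1.49 ± 0.25 and 1.45 ± 0.25, and Col5a1 by 0.82 ± 0.23 and 0.86 ± 0.23 (SE). The call of Col5a1 was lost without 1 of 5 arrays in the comparison with IgG, at 0.64 to 0.89, and without 1 of 4 with CaCl2 alone, at 0.76 to 0.89. In the comparison with IgG it was also lost with median scaling, at 1.06, and with no filter, only the 2 groups compared or the replicate block, at an unchanged 0.82.

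Col2a1 and Col11a1 encode the main fibrillar chains of cartilage, and Col24a1 a fibrillar chain first known from developing bone and cornea. None of the 3 was well above background on any sham array. Col2a1 read 1.26, -1.22 and 0.60 with CaCl2 plus IgG and 0.57, -0.16 and 0.92 with CaCl2, against -5.92, -4.70 and -5.44 in sham aortas. It was at least 22.5-fold higher with CaCl2 plus IgG (adjusted p = 0.000803) and at least 26.3-fold higher with CaCl2 (adjusted p = 0.000678). These ratios set the treated mean against a background floor on the sham arrays. Col11a1 read -0.01, -0.60 and -1.25 with CaCl2 plus IgG, -0.07, -1.51 and -0.81 with CaCl2, and -6.56, -6.46 and -4.68 in sham aortas. It was at least 12.6-fold and at least 11.2-fold higher (adjusted p = 0.000777 and 0.000813). These sizes depend on the processing. Among the alternatives the Col2a1 log2 difference went down to 2.52 with CaCl2 plus IgG and to 2.69 with CaCl2. That of Col11a1 went down to 1.92 and 1.74. These values lie below the log2 bounds, 4.49 and 4.72 for Col2a1 and 3.66 and 3.48 for Col11a1. Both genes still passed under every alternative that tested them.

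Col24a1 read -2.70, -2.41 and -3.58 with CaCl2 plus IgG, -3.32, -3.24 and -1.47 with CaCl2, and -6.42, -6.27 and -5.06 in sham aortas. It was at least 2.60-fold and at least 3.02-fold higher (adjusted p = 0.0063 and 0.00417). With normexp background correction the Col24a1 differences were 0.42 and 0.44 and did not pass. Col11a2, another chain of the cartilage collagen XI, did not pass. It read -3.18, -3.52 and -3.94 with CaCl2 plus IgG, -3.40, -4.07 and -3.44 with CaCl2, and -3.36, -5.14 and -2.91 in sham aortas, with overlapping groups (adjusted p = 0.733 and 0.821). Col27a1, a further fibrillar chain of cartilage, read 0.21, -0.52 and -0.57 with CaCl2 plus IgG, -0.01, -0.34 and 0.41 with CaCl2, and -0.95, -1.11 and -1.30 in sham aortas. It rose by 0.83 ± 0.26 and 1.14 ± 0.26 (SE, adjusted p = 0.0449 and 0.0117). In the comparison with IgG its call was lost without any 1 of 6 arrays, at 0.57 to 0.94. It was also lost with median scaling at 1.06, normexp at 0.63, and with no filter, only the 2 groups compared or the replicate block at an unchanged 0.83.

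**Figure D2:**
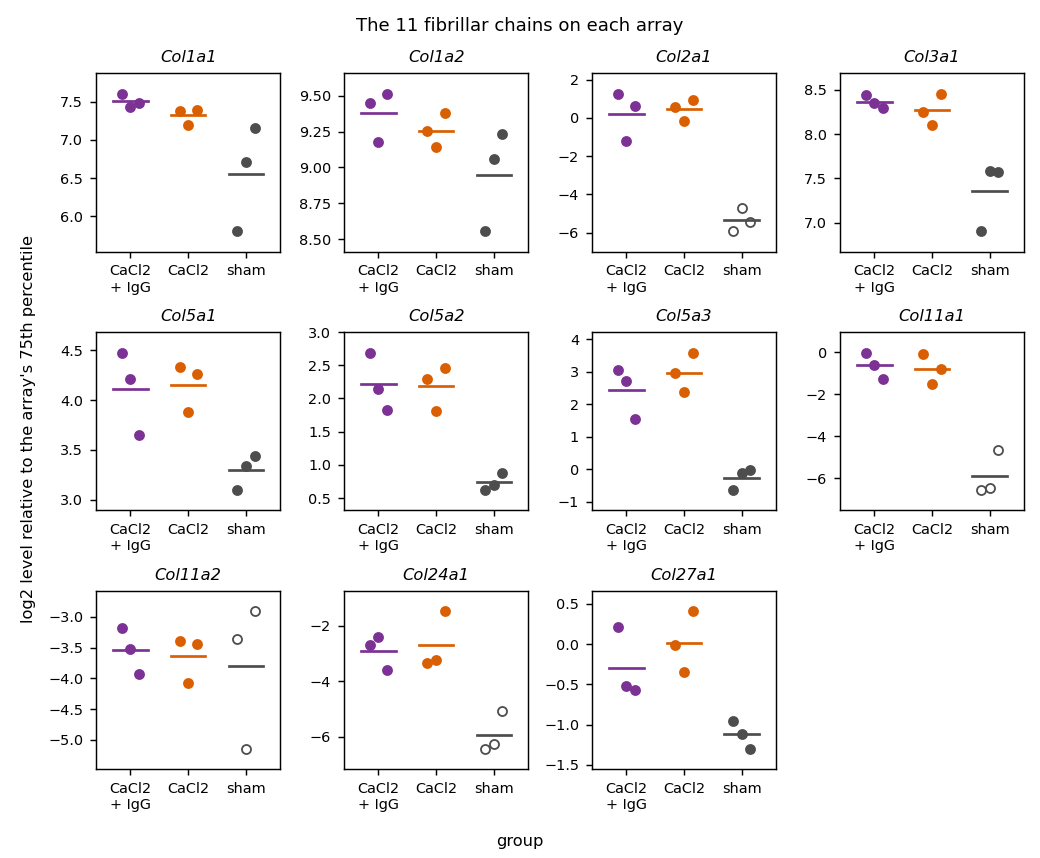
Log2 level, relative to the 75th percentile of the array, of the 11 fibrillar chains on each array, by group. Points are arrays, lines are group means, and open points mark a group in which fewer than 3 of 3 arrays were well above background. Col2a1, Col11a1 and Col24a1 have open points for all 3 sham arrays and filled points in both treated groups, whereas the groups overlap for Col1a2 and Col11a2.

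Other cartilage genes were read beside these chains. Of 10 tested cartilage markers 6 rose, 2 fell and 2 did not pass with CaCl2 against sham, with a median log2 difference of 1.82. In that comparison 17.6% of all genes tested were higher and 19.2% lower. Acan, the aggrecan core protein, rose by 2.50 ± 0.31 with CaCl2 plus IgG and by 2.90 ± 0.31 with CaCl2, and Sox9, the transcription factor of chondrocytes, by 3.43 ± 0.43 and 3.72 ± 0.43 (SE). Sox9 was well above background on only 1 of 3 sham arrays, so the size of its rise rests on a sham mean near background. The 2 that fell were Hapln1, the link protein of aggrecan, at -2.08 and -2.18, and Sox6, a partner of Sox9, at -2.15 and -1.67. Sox6 was well above background on 1 of 3 arrays with IgG. Of 6 bone markers 3 rose and 0 fell with CaCl2, where the same shares apply. Their summed level on the linear scale was 40.4 to 64.4 with CaCl2 plus IgG and 31.8 to 81.4 with CaCl2, against 0.963 to 1.61 in sham aortas. Spp1, osteopontin, rose by 7.38 ± 0.90 with CaCl2 plus IgG and by 7.35 ± 0.90 with CaCl2, and Ibsp, bone sialoprotein, by 4.46 ± 0.52 and 4.73 ± 0.52 (SE). Spp1 was well above background on 2 of 3 sham arrays and was the brightest of the list. Without it the sum was 2.51 to 8.19 with CaCl2 plus IgG and 4.02 to 9.21 with CaCl2, against 0.721 to 0.909 in sham aortas. The summed level of the cartilage markers was 99.7 to 194 with CaCl2 plus IgG, 98.7 to 113 with CaCl2 and 97.6 to 128 in sham aortas, most of it from Sox5, which did not pass. Without Sox5 the sum was 5.67 or more with CaCl2 plus IgG and 7.73 or more with CaCl2, against 2.99 to 3.30 in sham aortas, with no overlap. The part of cartilage or bone cells in the rise of Col2a1 and Col11a1 was not tested.

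The 6 collagen IV genes moved the other way, and each lay lower on all 6 treated arrays than on any sham array. In CaCl2 against sham the values of the 2 groups did not overlap for 56.7% of all genes tested, and in CaCl2 plus IgG against sham for 44.5%. Collagen IV genes lie in head-to-head pairs on opposite strands. In GRCm38.p6 the annotated Col4a1 and Col4a2 overlap by 85 bases on chromosome 8 and Col4a3 and Col4a4 by 114 bases on chromosome 1, and Col4a5 and Col4a6 lie 1274 bases apart on chromosome X. Col4a1 and Col4a2 form the widespread collagen IV trimer of vessels. Col4a3, Col4a4 and Col4a5 form the trimer known from the kidney glomerulus, and Col4a5 and Col4a6 the one known from smooth muscle.

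Col4a1 read 3.68, 4.14 and 3.91 with CaCl2 plus IgG, 4.13, 3.68 and 3.50 with CaCl2, and 4.45, 4.61 and 4.77 in sham aortas. Col4a2 read 4.13, 4.29 and 4.14 with CaCl2 plus IgG, 4.24, 4.08 and 3.92 with CaCl2, and 4.59, 4.52 and 4.79 in sham aortas. Both partners fell, to levels 1.62-fold and 1.36-fold lower with CaCl2 plus IgG, and 1.79-fold and 1.47-fold lower with CaCl2. The adjusted p was 0.0318 for Col4a1 and 0.0405 for Col4a2 with CaCl2 plus IgG, and 0.0136 and 0.016 with CaCl2.

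The Col4a3 and Col4a4 pair fell the most within the class. Col4a3 read -2.76, -3.92 and -3.28 with CaCl2 plus IgG, -3.36, -2.48 and -3.41 with CaCl2, and -1.21, -1.36 and -1.26 in sham aortas. Col4a4 read -0.41, -0.95 and 0.06 with CaCl2 plus IgG, -0.75, 0.04 and -1.06 with CaCl2, and 1.18, 1.02 and 1.39 in sham aortas. The 3 sham arrays were close together and the treated arrays spread over about 1 log2 unit or more. Col4a3 was 4.13-fold lower with CaCl2 plus IgG (adjusted p = 0.00308) and 3.50-fold lower with CaCl2 (adjusted p = 0.00459). Col4a4 was 3.09-fold lower (adjusted p = 0.00803) and 3.45-fold lower (adjusted p = 0.00471). These 2 genes were the only collagen IV genes still called lower in CaCl2 against sham with median scaling, where the other 4 were at -0.42 to -0.07. On CaCl2 replicate 2 both read higher than on the other CaCl2 arrays, and on replicate 2 of the group with IgG both read lowest.

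Col4a5 read 3.32, 2.94 and 3.11 with CaCl2 plus IgG, 3.22, 3.21 and 2.79 with CaCl2, and 3.36, 3.70 and 3.79 in sham aortas. Col4a6 read 3.21, 2.82 and 3.58 with CaCl2 plus IgG, 3.02, 3.54 and 2.75 with CaCl2, and 3.80, 3.92 and 4.27 in sham aortas. The third pair was near the threshold. With CaCl2 the differences were -0.55 ± 0.18 for Col4a5 (adjusted p = 0.0474) and -0.89 ± 0.26 for Col4a6 (SE, adjusted p = 0.0293). With CaCl2 plus IgG they were -0.49 ± 0.18 and -0.80 ± 0.26, which did not pass (adjusted p = 0.0757 and 0.0507).

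Leaving out 1 array ended some collagen IV calls. In CaCl2 against sham, 7 such omissions did so for Col4a5, at -0.62 to -0.40, and 4 for Col4a6, at -0.93 to -0.72. Omitting sham replicate 3 or CaCl2 replicate 3 did so for Col4a2, at -0.47 each. In CaCl2 plus IgG against sham, 8 omissions did so for Col4a2, at -0.51 to -0.37, and 3 for Col4a1, at -0.70 to -0.58. The Col4a2 call with IgG was lost under 16 of 19 alternatives in all, among them median scaling at -0.21, quantile normalization and the authors' table at -0.37 each, and both blocks. That of Col4a1 was also lost with median scaling, at -0.46, and, at an unchanged -0.70, with no filter and with the replicate block. In CaCl2 against sham the Col4a5 call was lost under 12 of the 19 alternatives, among them median scaling at -0.07 and normexp at -0.42. With no filter, only the 2 groups compared or the replicate block it was lost at an unchanged -0.55. The Col4a6 call there was lost under 7, among them median scaling at -0.42 and both blocks. The sign of all 6 genes stayed negative in both comparisons with sham under all 19 alternatives. Omitting 1 array cannot reverse the sign between groups whose arrays do not overlap. The other filters, the fit of only the 2 groups compared and the replicate block left each difference unchanged. The sign could have changed with median scaling, quantile normalization, normexp correction or the authors' table. It could also have changed with slide row as a block in CaCl2 against sham, or with the mean of several probes. The arrays lay in different rows of the slide, and with row as a block 3 of the 6 were called lower in each comparison. Within row 1, where 3 CaCl2 arrays meet 1 sham array from another slide, the basement membrane median was -1.08. In the same row 1 array with IgG against that sham array gave -1.07. Within row 2, where 2 arrays with IgG meet 2 sham arrays, it was -0.59. All 29 collagen genes called with CaCl2 and all 25 called with CaCl2 plus IgG kept their sign within each row that held both groups. This had to be so, because the arrays of each of these genes did not overlap between the groups. Outside collagen IV, the row block ended the calls of Col3a1 at 0.76, Col5a1 at 0.61, Col6a1 at 0.68, Col6a6 at 1.04, Col12a1 at 0.92, Col25a1 at -1.19 and Col27a1 at 0.98 with CaCl2, and of Col27a1 at 0.83 with CaCl2 plus IgG.

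**Figure D3:**
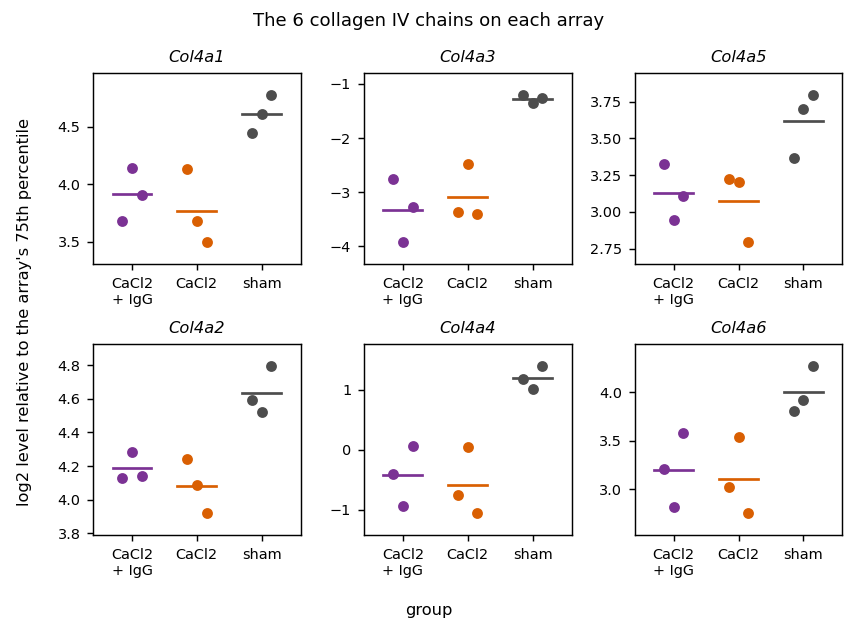
Log2 level, relative to the 75th percentile of the array, of the 6 collagen IV genes on each array, by group, with head-to-head partners above each other. Points are arrays and lines are group means. In every panel the 3 sham arrays lie above all 6 arrays of the CaCl2-treated groups, by the widest margin for Col4a3 and Col4a4.

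Smooth muscle, whose cells are wrapped in collagen IV, was read from its markers. All 12 smooth muscle markers fell in both comparisons with sham. Their summed linear level was 909 to 1239 with CaCl2 plus IgG and 825 to 1339 with CaCl2, against 2722 to 3117 in sham aortas. Myh11, smooth muscle myosin, differed by -2.38 with CaCl2 plus IgG and -2.37 with CaCl2, and Smtn, smoothelin, by -1.87 and -1.74. Of 10 endothelial markers 2 rose and 2 fell with CaCl2, where 17.6% of all genes tested were higher and 19.2% lower. Cldn5, a tight junction claudin, rose by 2.28 ± 0.36 (SE) and Vwf, von Willebrand factor, fell by 0.80. The summed endothelial level was 96.9 to 135 with CaCl2 plus IgG, 102 to 126 with CaCl2 and 122 to 137 in sham aortas. Without Vwf, the brightest, it was 51.5 to 90.0 with CaCl2 plus IgG, 64.4 to 82.6 with CaCl2 and 52.2 to 58.1 in sham aortas. The part of these cells in the collagen IV result was not tested.

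Of 14 tested partners of collagen IV in the basement membrane 3 rose, 5 fell and 6 did not pass with CaCl2. Over all genes tested 17.6% were higher and 19.2% lower. Lamb1, a laminin beta chain, rose by 1.82 ± 0.29 with CaCl2 plus IgG and by 1.94 ± 0.29 with CaCl2, and Nid2, a nidogen that links laminin to collagen IV, by 1.34 ± 0.22 and 1.20 ± 0.22 (SE). The laminin chains Lamc3, Lama5, Lama3 and Lamb2 fell with CaCl2, with log2 differences from -1.80 for Lamc3 to -0.58 for Lamb2. Pxdn, the peroxidase that cross-links collagen IV, rose by 0.78 ± 0.23 with CaCl2 (SE, adjusted p = 0.0305). Genes of this list moved in both directions.

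Promoter sequence is shown for the collagen IV pair whose starts are set apart, and for 2 genes that rose, Col3a1 and Col10a1. Each window is the 250 bases upstream of a RefSeq transcript start in GRCm38.p6, in the sense of the gene. For Col4a5 and Col4a6 these starts are 141475419 and 141474076, inside the gene bounds of 141475370 and 141474095 used for the gap. Their windows thus reach into the annotated genes. The marked GGGCGG lies inside the gene for Col4a5 and at its edge for Col4a6. Capitals mark GGGCGG, the GC box letters, CCAAT or TATAAA on either strand. The windows are chrX:141475169-141475418 for Col4a5, plus strand, and chrX:141474077-141474326 for Col4a6, minus strand. Those of Col3a1 and Col10a1 are chr1:45311288-45311537 and chr10:34389731-34389980, both on the plus strand.
Col4a5: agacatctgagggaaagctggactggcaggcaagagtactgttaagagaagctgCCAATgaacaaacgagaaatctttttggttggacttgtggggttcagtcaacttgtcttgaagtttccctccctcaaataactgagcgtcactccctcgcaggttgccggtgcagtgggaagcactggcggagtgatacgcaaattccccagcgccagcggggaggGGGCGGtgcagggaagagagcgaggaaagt
Col4a6: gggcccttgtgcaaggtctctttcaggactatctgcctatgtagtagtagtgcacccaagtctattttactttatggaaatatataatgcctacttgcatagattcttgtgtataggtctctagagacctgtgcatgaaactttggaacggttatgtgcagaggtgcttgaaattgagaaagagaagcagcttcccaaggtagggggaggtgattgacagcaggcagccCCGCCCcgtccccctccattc
Col3a1: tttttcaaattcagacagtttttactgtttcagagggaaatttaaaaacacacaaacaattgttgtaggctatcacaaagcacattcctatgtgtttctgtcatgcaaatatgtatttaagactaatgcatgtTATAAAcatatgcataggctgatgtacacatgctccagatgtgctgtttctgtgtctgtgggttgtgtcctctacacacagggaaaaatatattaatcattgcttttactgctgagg
Col10a1: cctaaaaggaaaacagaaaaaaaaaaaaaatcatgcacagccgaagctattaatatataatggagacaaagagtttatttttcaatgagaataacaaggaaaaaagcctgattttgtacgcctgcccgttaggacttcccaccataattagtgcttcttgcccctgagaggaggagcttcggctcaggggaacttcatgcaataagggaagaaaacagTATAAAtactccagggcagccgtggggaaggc
GGGCGG stands once in each of the Col4a5 and Col4a6 windows, and TATAAA once in each of the Col3a1 and Col10a1 windows. Over 38 windows of 35 collagen genes GGGCGG was found in 22, CCAAT in 13 and TATAAA in 5. Over all 32851 RefSeq windows of this length the shares were 32.7%, 33.8% and 12.4%. Among collagen IV windows 3 of 5 held GGGCGG and 0 held TATAAA, and among fibrillar windows 6 of 8 and 2 of 8. A match describes the letters in the window and no binding of a factor.

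FACIT chains carry short triple helices and bind the surface of fibrils. Col12a1 and Col14a1 are the FACITs of collagen I fibrils in tendon, skin and vessel. Col12a1 read 1.34, 1.39 and 0.51 with CaCl2 plus IgG, 1.37, 0.74 and 0.94 with CaCl2, and -0.74, -0.32 and 0.23 in sham aortas. It rose by 1.36 ± 0.32 and 1.30 ± 0.32 (SE, adjusted p = 0.0152 and 0.0158). Its call was lost without replicate 1 or 2 of the group with IgG in the first comparison, at 1.23 and 1.21. In the second it was lost without sham replicate 1 or CaCl2 replicate 1, at 1.07 and 1.12.

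Col14a1 read 5.83, 5.63 and 5.12 with CaCl2 plus IgG, 5.66, 5.43 and 6.06 with CaCl2, and 3.20, 4.02 and 3.82 in sham aortas. It was 3.60-fold and 4.10-fold higher (adjusted p = 0.00237 and 0.00144), the largest rise among the FACIT genes tested in either comparison. Col16a1, a FACIT also found with fibrillin microfibrils in skin, read 5.41, 5.27 and 4.83 with CaCl2 plus IgG, 5.44, 4.97 and 5.46 with CaCl2, and 3.82, 4.06 and 4.22 in sham aortas. It rose by 1.14 ± 0.21 and 1.26 ± 0.21 (SE, adjusted p = 0.00522 and 0.00309). Col20a1 read -0.41, 0.28 and -0.19 with CaCl2 plus IgG, 0.14, -0.52 and -0.46 with CaCl2, and -2.08, -1.87 and -1.33 in sham aortas. Both of its probes moved alike, and it rose by 1.65 ± 0.27 and 1.48 ± 0.27 (SE, adjusted p = 0.00356 and 0.00493). These 4 FACIT genes separated all treated from all sham arrays. Of all genes tested, 56.7% did not overlap with CaCl2 against sham and 44.5% with CaCl2 plus IgG against sham.

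Col19a1, a chain best known from muscle and nerve development, was the 1 FACIT gene that fell. It read -6.36, -6.99 and -6.46 with CaCl2 plus IgG, -6.83, -4.90 and -7.13 with CaCl2, and -2.42, -2.53 and -2.69 in sham aortas. It was well above background on 0 of 3, 1 of 3 and 3 of 3 arrays in that order of groups. It was at least 4.50-fold lower with CaCl2 plus IgG (adjusted p = 0.00116). With CaCl2 it also passed (adjusted p = 0.0015), but only 1 of 3 arrays measured it, so no size is given from this scale. With normexp correction the log2 differences were smaller, -1.14 and -1.28, and passed. Skeletal muscle markers were read beside it. Of 14 such markers 6 were bright enough to test, of which 2 fell and 1 rose with CaCl2. Of all genes tested, 19.2% were lower and 17.6% higher. Acta1, skeletal actin, differed by -2.49 with CaCl2 plus IgG and -2.48 with CaCl2, and Tnni2, fast troponin I, rose by 1.92 in each. Chrna1 was the other that fell. It was at least 4.50-fold lower with CaCl2 (adjusted p = 0.000894), where no array had it well above background. With CaCl2 plus IgG it also passed as lower (adjusted p = 0.00187), well above background on 1 of 3 arrays. The summed level of the 6 was 9.30 to 9.88 with CaCl2 plus IgG and 7.09 to 15.9 with CaCl2, against 41.0 to 52.9 in sham aortas, most of it from Acta1. Without Acta1 it was 1.42 to 1.53 with CaCl2 plus IgG and 1.45 to 1.47 with CaCl2, against 0.625 to 0.791 in sham aortas. In both treated groups most of this remaining sum came from Tnni2. The part of skeletal muscle in the fall of Col19a1 was not tested.

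Of the remaining FACIT genes, Col9a2, a chain of the cartilage collagen IX, read -3.35, -3.87 and -3.50 with CaCl2 plus IgG, -3.71, -4.27 and -3.88 with CaCl2, and -2.72, -4.13 and -3.11 in sham aortas. It overlapped between groups and did not pass (adjusted p = 0.599 and 0.179), but with normexp it passed with CaCl2, at -0.56. Col9a1 and Col9a3, the other chains of collagen IX, were not well above background on any array. Col22a1, a FACIT of tissue junctions, gave different answers by probe. Its brightest probe differed by 0.40 ± 0.31 and 0.13 ± 0.31 (SE, adjusted p = 0.357 and 0.77), and its second probe by 1.50 and 2.02 on the log2 scale, so the mean of both passed in each comparison.

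**Figure D4:**
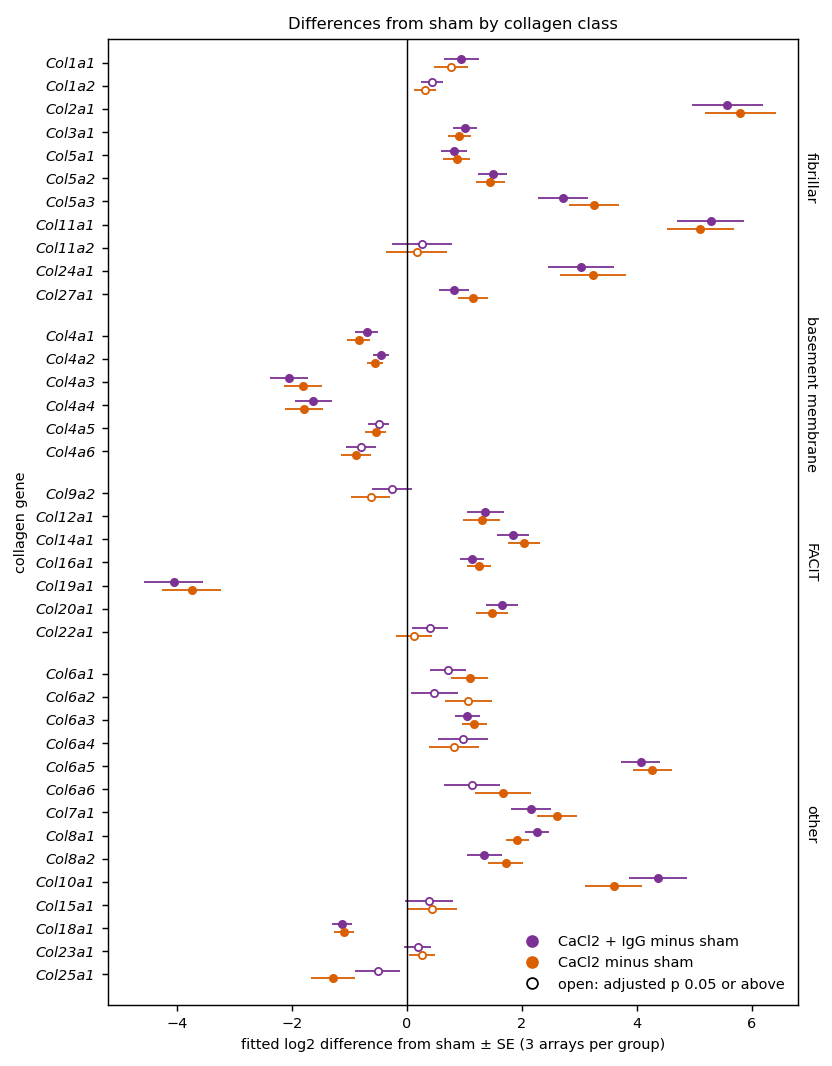
Fitted log2 difference from sham, with its SE, of the 38 tested collagen genes by class, for CaCl2 plus IgG and for CaCl2. Filled points have an adjusted p under 0.05 (limma). All 6 basement membrane points lie left of 0 in both comparisons, no fibrillar point does, and Col19a1 lies furthest to the left.

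Collagen VI makes beaded microfilaments around cells, from Col6a1 and Col6a2 with a further chain that can be Col6a3, Col6a4, Col6a5 or Col6a6. With CaCl2, 4 of 6 collagen VI genes rose, and with CaCl2 plus IgG 2 of 6. Of all genes tested, 17.6% were higher with CaCl2 and 14.9% with CaCl2 plus IgG. Col6a1 read 7.32, 6.83 and 6.24 with CaCl2 plus IgG, 7.19, 6.81 and 7.51 with CaCl2, and 5.64, 6.23 and 6.37 in sham aortas. Col6a2 read 4.54, 3.97 and 2.87 with CaCl2 plus IgG, 4.37, 3.95 and 4.84 with CaCl2, and 2.99, 3.52 and 3.45 in sham aortas. For both genes the CaCl2 arrays lay above sham. For Col6a1 replicate 3 of the group with IgG was within the range of sham, and for Col6a2 it was below all 3 sham arrays. Col6a1 rose by 1.09 ± 0.32 with CaCl2 (SE, adjusted p = 0.0286), and its difference with CaCl2 plus IgG was 0.71 ± 0.32 (adjusted p = 0.123). Without replicate 3 of the group with IgG that difference was 0.99 and passed. The Col6a2 differences were 0.47 ± 0.41 and 1.07 ± 0.41 (SE, adjusted p = 0.406 and 0.0721), and without that replicate both passed, at 0.93 and 1.07. The second also passed with median scaling at 1.54, with normexp at 1.15 and with only the 2 groups compared. The call of Col6a1 with CaCl2 was lost without 1 of 4 arrays, at 0.87 to 1.16, and with the replicate block.

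Col6a3, the partner in most tissues, read 6.30, 6.05 and 5.64 with CaCl2 plus IgG, 6.19, 5.79 and 6.38 with CaCl2, and 4.77, 4.96 and 5.12 in sham aortas. It rose by 1.05 ± 0.22 and 1.17 ± 0.22 (SE, adjusted p = 0.00911 and 0.00496). Col6a5, an alternative to it, read 2.73, 2.06 and 2.23 with CaCl2 plus IgG, 2.66, 2.10 and 2.87 with CaCl2, and -1.02, -2.05 and -2.10 in sham aortas. It was 16.7-fold higher with CaCl2 plus IgG (adjusted p = 0.000364) and 19.2-fold higher with CaCl2 (adjusted p = 0.000282), and its second probe also read higher in both treated groups. Col6a6, in the same gene cluster on chromosome 9, read -1.99, -3.51 and -3.61 with CaCl2 plus IgG, -1.69, -2.80 and -3.01 with CaCl2, and -4.12, -4.43 and -3.95 in sham aortas. It was not well above background on any sham array, and with CaCl2 it was at least 3.01-fold higher (adjusted p = 0.0279). With CaCl2 plus IgG it was at least 2.07-fold higher by the same bound but did not pass (adjusted p = 0.112), while the mean of its probes did, at 1.57. With CaCl2 its log2 difference was 0.14 after normexp correction and 1.27 to 1.78 without 1 of 4 arrays, in each case below the threshold. Col6a4, a further gene of that cluster, was dim and did not pass (adjusted p = 0.127 and 0.166).

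Collagen VII forms the anchoring fibrils of epithelial basement membranes. Col7a1 read -0.20, 0.11 and -1.31 with CaCl2 plus IgG, 0.14, -0.30 and 0.10 with CaCl2, and -2.66, -2.89 and -2.34 in sham aortas. It was 4.47-fold and 6.10-fold higher (adjusted p = 0.00311 and 0.00135). Collagen VIII is a short-chain collagen of vessels and cornea. Col8a1 read 1.94, 1.88 and 1.22 with CaCl2 plus IgG, 1.50, 1.17 and 1.37 with CaCl2, and -0.67, -0.62 and -0.44 in sham aortas. Col8a2 read 0.51, 0.54 and -0.25 with CaCl2 plus IgG, 0.54, 0.30 and 1.07 with CaCl2, and -1.49, -1.02 and -0.72 in sham aortas. Both chains rose without overlap, Col8a1 by 2.26 ± 0.21 and 1.92 ± 0.21 and Col8a2 by 1.35 ± 0.30 and 1.72 ± 0.30 (SE). The adjusted p was 0.000509 and 0.000706 for Col8a1, and 0.0123 and 0.00397 for Col8a2. With the mean of all its probes Col8a2 differed by 1.00 with CaCl2 plus IgG and did not pass.

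Col10a1 encodes collagen X, the product of hypertrophic chondrocytes in the growth plate. It read -1.86, -1.25 and -2.64 with CaCl2 plus IgG, -1.55, -3.48 and -3.04 with CaCl2, and -6.38, -6.29 and -6.17 in sham aortas. It was not well above background on any sham array and was at least 5.13-fold higher with CaCl2 plus IgG (adjusted p = 0.000871) and at least 3.00-fold higher with CaCl2 (adjusted p = 0.00162). With normexp correction the second difference was 0.55 and did not pass. Among the alternatives the first log2 difference went down to 1.05, below its bound, and still passed. Runx2, an osteoblast transcription factor also active in such chondrocytes, was not well above background on any sham array either. It was at least 1.11-fold and at least 1.21-fold higher (adjusted p = 0.00691 and 0.00453). With CaCl2 plus IgG it was well above background on only 2 of 3 arrays, so the first bound rests in part on a dim array.

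Col15a1 and Col18a1 encode the multiplexins of the basement membrane zone, and the C-terminal fragment of collagen XVIII is endostatin. Col15a1 read 0.31, -0.31 and 0.16 with CaCl2 plus IgG, -0.46, -0.27 and 1.07 with CaCl2, and -0.60, -0.66 and 0.27 in sham aortas. Its groups overlapped and it did not pass (adjusted p = 0.516 and 0.439). Col18a1 read 5.15, 5.20 and 5.34 with CaCl2 plus IgG, 5.29, 5.48 and 5.04 with CaCl2, and 6.12, 6.32 and 6.65 in sham aortas. It was 2.19-fold and 2.13-fold lower (adjusted p = 0.00272 and 0.00284), and its 2 probes agreed in direction. With median scaling the Col18a1 difference with CaCl2 was -0.62 and did not pass. Of the transmembrane collagens, Col25a1, a neuronal chain, differed by -0.51 ± 0.39 with CaCl2 plus IgG (adjusted p = 0.339) and fell by 1.29 with CaCl2 (SE 0.39, adjusted p = 0.0322). The call with CaCl2 was lost when any 1 of the 6 arrays compared was left out, at -1.38 to -1.17. It was also lost with median scaling at -0.82, and with quantile normalization and the authors' table at -0.76 each. Col23a1 did not pass, and 1 of its 3 probes differed in sign from the other 2 (adjusted p = 0.563 and 0.404). Col13a1 was not well above background on any array and Col17a1 on 1 sham array. Col28a1 was above it on 2 arrays with IgG and 1 with CaCl2.

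The third comparison set CaCl2 plus IgG against CaCl2 to ask whether injected IgG altered the collagen genes after injury. Of 38 tested genes 0 passed, and limma called 0 of all 16375 genes. At an unadjusted p under 0.05 there were 0 of the 38 and 242 of all genes, 1.48%. The log2 differences were positive for 19 genes and negative for 19, with a median of -0.00, and ran from -0.59 for Col6a2 to 0.78 for Col25a1. The arrays of the 2 groups did not overlap for 1 gene, Col1a1, where 5.04% of all genes tested showed that.

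The 5 genes with the smallest p were Col25a1, Col8a1, Col10a1, Col6a2 and Col7a1. Col25a1 read -3.92, -4.20 and -2.53 with CaCl2 plus IgG, and -4.26, -4.57 and -4.15 with CaCl2, a difference of 0.78 with a 95% interval of -0.11 to 1.66 (unadjusted p = 0.0778). Replicate 3 of the group with IgG was the high array. Col10a1 differed by 0.77 (-0.38 to 1.92), Col8a1 by 0.34 (-0.14 to 0.81), Col7a1 by -0.45 (-1.25 to 0.35) and Col6a2 by -0.59 (-1.54 to 0.35), each with its 95% interval. Among collagen IV genes the interval of Col4a2 ran from -0.21 to 0.42 around 0.10, and that of Col4a1 from -0.32 to 0.60 around 0.14. Those of Col4a3 and Col4a4 were wider, from -0.99 to 0.51 and from -0.59 to 0.91. For Col2a1 and Col11a1 they reached from -1.64 to 1.18 and from -1.14 to 1.50. These intervals include 0 but also differences of the sizes given, so they do not show that the groups are alike.

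**Figure D5:**
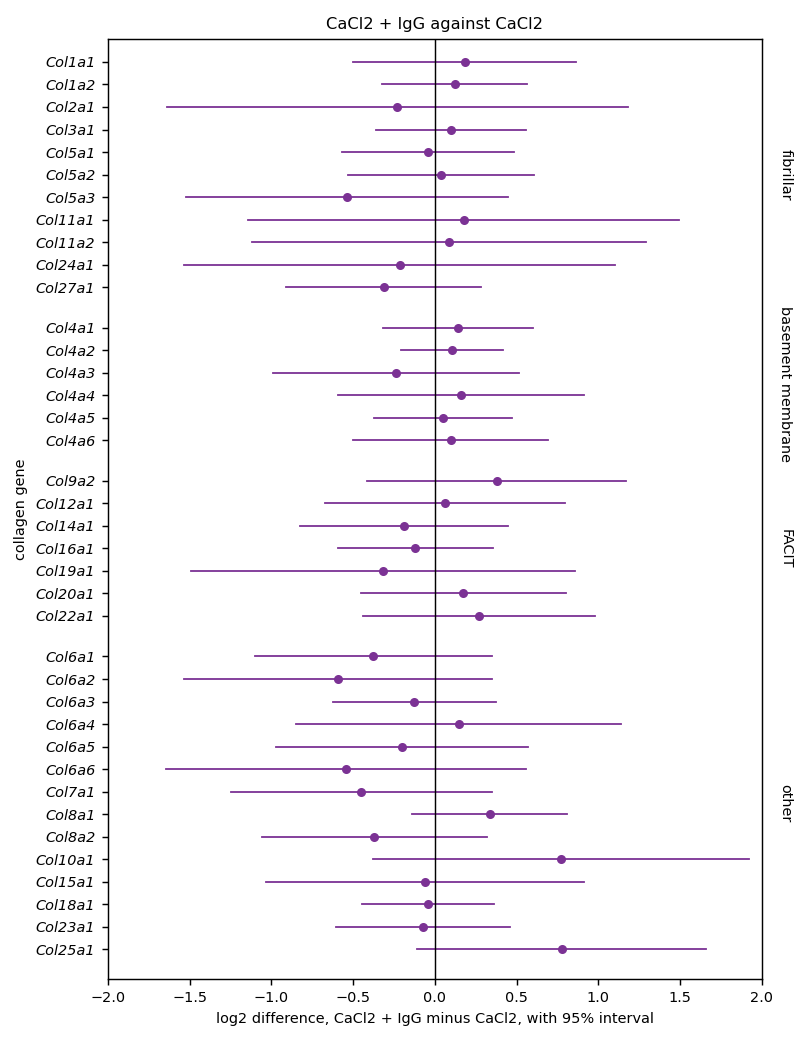
Log2 difference of CaCl2 plus IgG minus CaCl2 for the 38 tested collagen genes by class. Points are fitted differences and lines their unadjusted 95% intervals, all of which include 0. The widest belong to Col2a1 and Col11a1, and the narrowest to Col4a2.

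Collagen biosynthesis genes were then read from lists. Of 25 tested genes of collagen processing and folding 4 rose, 4 fell and 17 did not pass with CaCl2 against sham, with a median log2 difference of 0.23. Over all genes tested 36.7% passed in this comparison, 17.6% higher and 19.2% lower. With CaCl2 plus IgG against sham 14.9% were higher and 14.4% lower. The counts of the lists below are to be read beside the shares of their comparison. Bmp1, the proteinase that cuts off the C-propeptide of fibrillar chains, rose by 0.91 ± 0.17 with CaCl2 plus IgG and by 0.86 ± 0.17 with CaCl2 (SE). Plod2, the lysyl hydroxylase of telopeptides, rose by 0.88 ± 0.26 and 0.92 ± 0.26, and its partner Fkbp10 by 1.34 ± 0.38 with CaCl2 (SE, adjusted p = 0.0258). P3h2, a prolyl 3-hydroxylase that acts on collagen IV, fell, with differences of -1.65 and -1.74 (adjusted p = 0.000403 and 0.000326). Serpinh1, the collagen chaperone HSP47, differed by 0.52 ± 0.35 and 0.55 ± 0.35 and did not pass (SE, adjusted p = 0.295 and 0.248). Adamts14, which removes N-propeptides, fell, with differences of -1.03 and -1.12. Of the 5 lysyl oxidases that cross-link collagen only Loxl2 passed, and it rose by 1.36 ± 0.34 and 1.51 ± 0.34 (SE).

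Of 8 tested genes for collagen breakdown and uptake 6 rose and 0 fell with CaCl2, and 7 rose with CaCl2 plus IgG. Mmp13, the main interstitial collagenase of the mouse, was not well above background on any sham array and was at least 29.2-fold higher with CaCl2 plus IgG (adjusted p = 0.000782) and at least 39.2-fold higher with CaCl2 (adjusted p = 0.000615). Fap rose by 2.70 ± 0.21 and 2.52 ± 0.21, Mrc2, the uptake receptor for collagen, by 1.95 ± 0.23 and 2.06 ± 0.23, and Mmp2, a gelatinase, by 2.08 ± 0.24 and 2.07 ± 0.24 (SE). The summed level of the list was 140 to 198 with CaCl2 plus IgG and 133 to 182 with CaCl2, against 36.1 to 50.3 in sham aortas. Genes for collagen chains and for collagen breakdown were both among those that rose.

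Of 8 tested collagen receptors 4 rose and 2 fell in each comparison with sham. Itga11, which pairs with beta 1 to bind fibrillar collagen, rose by 3.03 ± 0.32 with CaCl2 plus IgG and by 3.10 ± 0.32 with CaCl2 (SE). Itga2, of another collagen-binding integrin, passed as higher (adjusted p = 0.00106 and 0.00107), but it was not well above background on any of the 3 sham arrays and on 2 of 3 with IgG, and no fold is given. Itga1, whose integrin prefers collagen IV, fell, with differences of -1.06 and -1.16, as did its partner Itgb1, at -0.64 and -0.61. Ddr1 and Ddr2, the receptor kinases for collagen, did not pass. Of 14 genes for proteins on the fibril surface 5 rose and 1 fell with CaCl2, and 5 rose and 2 fell with CaCl2 plus IgG. The median log2 difference of the list was 0.06 with CaCl2. Ogn fell, with differences of -0.97 with CaCl2 plus IgG and -1.12 with CaCl2. Postn fell with CaCl2 plus IgG, at -0.92 (adjusted p = 0.0381). Kera and Dpt were among those that rose. Lum, lumican, rose by 2.02 ± 0.16 and 1.79 ± 0.16, Comp, cartilage oligomeric matrix protein, by 3.33 ± 0.34 and 3.65 ± 0.34, and Fmod, fibromodulin, by 1.81 ± 0.50 and 2.25 ± 0.50 (SE). Decorin, Dcn, differed by 0.05 ± 0.14 and -0.04 ± 0.14 and did not pass (SE).

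Markers of cells that make or contain collagen were set beside these results. Of 12 fibroblast markers 5 rose, 0 fell and 7 did not pass with CaCl2, and their summed level was 1233 to 1461 with CaCl2 plus IgG, 1136 to 1272 with CaCl2 and 924 to 995 in sham aortas. Pdgfra rose by 0.78 ± 0.15 and 0.83 ± 0.15 and Thy1 by 1.74 ± 0.21 and 1.78 ± 0.21 (SE). Of 12 macrophage markers 11 rose with CaCl2 and 12 with CaCl2 plus IgG, at a summed level of 291 to 323 with CaCl2 plus IgG, 301 to 333 with CaCl2 and 36.4 to 111 in sham aortas. Of 7 adipocyte markers 3 fell with CaCl2 and 6 with CaCl2 plus IgG, at summed levels of 35.8 to 50.2 with CaCl2 plus IgG, 39.2 to 62.6 with CaCl2 and 74.3 to 113 in sham aortas. Of 8 nerve markers 3 rose and 2 fell, and of 4 mesothelial and epithelial markers 1 rose. The part of these cells in the collagen results was not tested.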

How the data were processed

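Deposited scanner files give a linear intensity per spot, background-subtracted by Feature Extraction 10.7.1.1, per the file headers. The submitters' processing notes name version 9.5.1.1. The authors' deposited series table of intensity values, with steps the sources used here do not give, served as an alternative. Levels are the log2 processed signal minus the array's 75th percentile. Control and outlier spots were left out, and 0 spots were saturated. Kept probes were well above background on every array of 1 group or more, and the brightest probe represented a gene. Probes were named through RefSeq of GRCm38.p6 by accession (27173) or symbol (3575), or by the file alone (1645). Collagen genes kept the file's name; Emid2, an older name of a collagen gene, was outside the rule.

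Comparisons used limma (version 3.58.1, R 4.3.3, functions lmFit and eBayes, 1 fit of all 9 arrays, 6 residual degrees of freedom), with Benjamini-Hochberg adjustment over 16375 genes and a threshold of 0.05. The fit was tested on simulated data. A bound, at least N-fold, sets the brighter group's mean against the dimmer group's floor, which on an array is the lowest signal well above background, or the probe's own where that is higher. Summed marker levels add linear signals relative to the 75th percentile over the tested genes of a list, and sums without the brightest gene were added after seeing the data. Same-numbered replicates did not deviate together (correlations -0.20 to 0.22), so the numbers pair no samples. Promoters are from RefSeq (GRCm38.p6) and probe positions from the files (mm9). The genes given on every array were a set list of the best-known chains and the called members with the largest changes per class. Of each other list up to 4 called genes per direction were eligible by smallest p, and not all of these are named. Those left out include Colgalt2, Pcolce2 and P3h1 of the processing list and Itga10 and Lair1 of the receptors, each called with CaCl2. Genes outside this rule (Serpinh1, Dcn, Ddr1, Ddr2, Fmod) were chosen after their values were seen. Members and lists were chosen with earlier results of these data known. The precision is limited by 3 arrays per group.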

Additional observations from a re-analysis of the deposited data

How the results depend on the processing

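Each comparison was repeated under 19 alternatives: median scaling, quantile normalization, normexp correction, 2 other filters, the authors' series table, the mean of all probes, only the 2 groups compared, slide row or replicate number as a block, and 9 omissions of 1 array. Calls in CaCl2 against sham numbered 6017 genes, and 3405 with slide row as a block and 3930 to 7387 without 1 array. The 9 lower collagen genes there became 3 with median scaling, 5 with slide row as a block, and 5 to 9 without 1 array. Calls in CaCl2 plus IgG against sham numbered 4785 genes, 2980 with median scaling and 3027 to 6648 without 1 array. In CaCl2 plus IgG against CaCl2 there were 0 calls, and 0 to 2 without 1 array. Higher and lower collagen genes otherwise stayed within 1.5 times their counts. With the replicate block, which rests on numbers that pair no samples, calls numbered 5759, 4668 and 0, and lower collagen genes 7 and 4 in the comparisons with sham. Among single genes, 8 values in CaCl2 against sham and 6 in CaCl2 plus IgG against sham changed sign, all of genes that did not pass. In CaCl2 against sham, normexp gave -0.21 for Col6a4, -0.36 for Col11a2 and -0.13 for Col22a1. Slide row as a block gave -0.46 for Col11a2 and -0.023 for Col22a1, and the mean of probes -0.33 for Col23a1. Without 1 array Col11a2 ran from -0.50 to 0.62 and Col15a1 from -0.036 to 0.74. In CaCl2 plus IgG against sham, normexp gave -0.017 for Col6a4 and -0.21 for Col11a2, and the mean of probes -0.28 for Col23a1. Without 1 array Col9a2 ran from -0.66 to 0.046, Col11a2 from -0.41 to 0.70 and Col23a1 from -0.061 to 0.33. The causes were not tested. One slide held 8 arrays and the other only sham replicate 3, so the slide could not be separated from that array. Signal over background limits Col2a1, Col10a1, Col11a1, Col24a1 and Col6a6 in sham aortas.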
